A study of Mus musculus with 2 samples.

Results

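The levels of 10 immediate early genes were followed in 4 classes of mouse cells: Fos, Jun, Junb, Egr1, Ier2, Ier3, Atf3, Dusp1, Zfp36 and Klf6. They were taken by symbol, each matched 1 feature of the 32286 in both libraries, and they were chosen as a group whose mRNAs are known for short half-lives. The single-cell RNA sequencing (scRNA-seq) data came from 2 libraries made with a droplet-based 3′ kit, 1 of embryonic stem cells (ESCs, 0 h) and 1 of epiblast-like cells (48h-EpiLCs, 48 h). In each library a wild-type (WT) line had been mixed in equal cell numbers with a Cnot8 knockout (KO) line. The WT line carries the ROSA mT/mG reporter, which transcribes tdTomato. By the methods of the study, the cells were dissociated, washed, strained and counted before the lines were mixed. The ESCs were grown in serum/LIF on feeder cells, and the EpiLCs in N2B27 with activin A, bFGF and KSR on Matrigel. The strain label of both libraries is ICR. The KO line derives from blastocysts of matings between heterozygous mice whose Cnot8 had been edited in exon 2, and how many KO and WT lines entered the libraries was not given in the sources used here.

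Immediate early genes are transcribed within minutes of a stimulus such as a growth factor or stress, through transcription factors that are already present, and need no new protein for it. Serum response factor (SRF) with its partners, which receive the signal of the ERK kinases, and the cAMP response element binding protein (CREB) are the best-known of these factors. Their mRNAs are short-lived, in many cases because AU-rich elements in the 3′ untranslated region (3′ UTR) are bound by proteins that recruit the Ccr4-Not complex. Cnot8 is a deadenylase subunit of that complex and shortens poly(A) tails. Among the 10 genes, Fos, Jun and Junb encode subunits of the transcription factor AP-1. Egr1, Klf6 and Atf3 encode further transcription factors, Ier2 a nuclear protein and Ier3 a regulator of survival. Dusp1 encodes a phosphatase that switches off MAP kinases. Zfp36 encodes tristetraprolin, the AU-rich element binding protein for which Ccr4-Not recruitment is best described.

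The AU-rich motifs are shown first, since they are the feature by which these mRNAs are usually called unstable. In the GENCODE M21 annotation (GRCm38), the transcript with the longest coding sequence was taken for each gene, and its 3′ UTR was searched on the transcribed strand for the pentamer ATTTA, the heptamer TATTTAT and the nonamer TTATTTATT, which overlap one another by construction. At least 1 ATTTA was found in 9 of 10 members, against 65.6% of 9148 protein-coding genes with a mean of at least 5 UMIs per 1000000 (CPM) over the 4 classes. TATTTAT was found in 7 of 10, against 27.3% of those genes. TTATTTATT was found in 3 of 10, namely Fos with 1, Dusp1 with 2 and Zfp36 with 1, against 6.88%. Among the 5193 genes with a 3′ UTR in the range of the members (485 to 3111 bases), the shares were 78.5%, 30.8% and 7.13%. Ier3 had the highest density, with 5 ATTTA in 613 bases. Ier2 had none in 755 bases. Fos had 4 in 815 bases, Jun 4 in 1233, Dusp1 4 in 690, Zfp36 3 in 774, Atf3 3 in 1186, Egr1 2 in 1216, Junb 2 in 485 and Klf6 7 in 3111. The 30 bases around the sites of the members that results below turn on were as follows, 5′ to 3′ on the transcribed strand, with TTATTTATT, or where a gene has none TATTTAT, in capitals. Of 4 TATTTAT in Ier3 the 3 windows shown centre on the last 3, and the first lies in lower case within the first of these windows.
Fos, chr12:85477103-85477132, + strand: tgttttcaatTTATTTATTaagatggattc
Dusp1, chr17:26506158-26506187, - strand: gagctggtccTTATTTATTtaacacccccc
Dusp1, chr17:26505869-26505898, - strand: gtttttacctTTATTTATTtttgtgtaggt
Zfp36, chr7:28376950-28376979, - strand: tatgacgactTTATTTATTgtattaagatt
Ier3, chr17:35822489-35822518, + strand: taatatttatgTATTTATgtatatcctcct
Ier3, chr17:35822531-35822560, + strand: ggtgtatgtaaTATTTATtctaacttatgc
Ier3, chr17:35822586-35822615, + strand: tgtaacacagaTATTTATtacgatttatag
Jun, chr4:95049078-95049107, - strand: ttgcttgtgcaTATTTATaatagcgttcgt

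The region around the transcription start is shown for Fos and Dusp1, since several members stood lower together in one class and these windows hold elements through which early genes are known to be induced. The RefSeq promoter table (GRCm38.p6) held windows from 250 bases before to 50 after the start for 8 of the 10 members, all but Egr1 and Ier2. They were searched on both strands. The core of the cAMP response element, TGACG or its complement CGTCA, was found in 4 of 8 windows (Fos, Junb, Atf3 and Dusp1), against 20.8% of all 32851 promoters. The full element TGACGTCA was found in Dusp1 only, against 1.79%. TATAAA or TTTATA was found in Fos and Junb (13.6% of all), and the serum response element in Zfp36 (1.63% of all). The AP-1 motif TGAGTCA or TGACTCA was found in 0 of 8 (5.2% of all). These are matches of letters in this window and say nothing about binding, and the distal elements of these genes lie outside it. The windows of Fos and Dusp1 are shown with the core elements and TATAAA in capitals. In Fos the core elements start 129 and 66 bases before the start site and TATAAA starts 33 before it, and in Dusp1 the full element starts 143 before it and a further core 191 before it.
Fos, chr12:85473640-85473939, + strand: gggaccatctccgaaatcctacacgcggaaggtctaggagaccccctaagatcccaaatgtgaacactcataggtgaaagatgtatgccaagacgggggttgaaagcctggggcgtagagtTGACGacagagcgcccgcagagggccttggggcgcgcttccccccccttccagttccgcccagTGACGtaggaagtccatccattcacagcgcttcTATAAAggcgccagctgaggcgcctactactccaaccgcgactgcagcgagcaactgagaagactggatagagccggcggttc
Dusp1, chr17:26508423-26508722, - strand: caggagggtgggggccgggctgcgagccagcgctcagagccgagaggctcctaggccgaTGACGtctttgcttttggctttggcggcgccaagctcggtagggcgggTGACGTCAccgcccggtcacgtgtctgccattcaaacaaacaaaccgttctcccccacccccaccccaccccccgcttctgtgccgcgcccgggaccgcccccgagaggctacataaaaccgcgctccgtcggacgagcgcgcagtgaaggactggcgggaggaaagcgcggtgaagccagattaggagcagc

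Cells were sorted into lines by their transcripts. Of 13184 barcodes with 144584246 UMIs in the ESC library and 12427 with 163771168 in the 48h-EpiLC library, 11054 and 9400 had at least 1000 genes and at most 10% mitochondrial UMIs. A cell with at least 1 tdTomato UMI and 0 UMIs of the Y-linked Ddx3y, Eif2s3y, Kdm5d and Uty was taken as WT line, and a cell with 0 tdTomato and at least 2 Y-linked UMIs as KO line. This gave 435 WT and 2978 KO ESCs, and 368 WT and 2977 KO 48h-EpiLCs, while 7641 and 6055 kept cells met neither rule. Although the lines were mixed in equal numbers, the WT classes were far smaller. By the rule they hold only cells in which tdTomato was detected. The rule itself sets the Y-linked difference between the classes, and genotype, sex and line cannot be told apart. Culture and dissociation before the mixing also go with the line at each stage. The part of this handling in the levels of genes that respond to stress within minutes was not tested. Both a tdTomato and a Y-linked UMI were found in 82 kept ESCs and 84 kept 48h-EpiLCs. Dera, at 33.6 and 41.5 CPM in WT ESCs and 48h-EpiLCs, was at 6.87 and 7.96 CPM in the KO classes, and the rule for the classes had not used it. Since Dera was listed with earlier results of these data known, it is no independent check of the classes. Cnot8 RNA itself was not lower in the KO classes (72.1 against 43.1 CPM in ESCs, 62.6 against 49.7 CPM in 48h-EpiLCs). A 3′ tag lies outside the edited exon, so these counts check nothing about the KO label, and every direction below rests on that label. Otx2, a marker of EpiLCs, was at 52.3 and 46.3 CPM in WT and KO 48h-EpiLCs and at 19.2 and 12.4 CPM in ESCs, and Fgf5 at 53.4 and 35.9 CPM and at 2.76 and 1.29 CPM. Of the naive markers, Zfp42 was at 37.5 and 97.2 CPM and Esrrb at 3.54 and 11.3 CPM in WT and KO 48h-EpiLCs, and at 303.5 and 603.4 CPM and at 48.7 and 56.6 CPM in ESCs. The libraries shared 41 barcodes. With 1 library per stage there was nothing to test against, cells being no replicates. Stage cannot be told apart from library, and all intervals are 95% intervals of counting error only. A lower level in a class can come from fewer cells expressing a gene or from less RNA per cell.

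One library detail touches the ESC results. The labels place the serum/LIF ESCs on feeder cells, which the general methods of the study give as mitomycin C-treated ICR embryonic fibroblasts. A feeder cell without tdTomato and with Y-linked UMIs meets the KO rule. The 9 fibroblast markers together reached 45.5 CPM in KO ESCs against 13.0 CPM in WT ESCs, and 12.3 against 8.84 CPM in 48h-EpiLCs. Col1a1 and the other 8 markers made up at least 0.1% of UMIs in 33 KO ESCs and in 0 cells of the other classes. Over the 131 such cells in the whole ESC library, the 10 genes summed to 1486 CPM (1428 to 1545), against 443.5 CPM in all kept ESCs. Ier3 was at 359 CPM in them, Klf6 at 287.5, Jun at 284.5 and Atf3 at 36.7 CPM, whereas Ier2 was at 43.2 and Egr1 at 47.3 CPM. The ESC values that moved with them are therefore also given without cells that hold 2 or more fibroblast-marker UMIs (which kept 430 WT and 2840 KO ESCs), an alternative added after the data had been seen. The 6 primitive endoderm markers together were at 30.5 CPM in KO and 14.5 CPM in WT ESCs, with at least 3 of their UMIs in 104 and 8 cells. Over the 272 such cells of the ESC library Klf6 was at 115.8 CPM, against 64.8 CPM in all kept ESCs, whereas the 10 genes summed to 429 CPM.

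The 10 genes summed to 488.6 CPM in WT ESCs, 398.2 CPM in KO ESCs, 754.5 CPM in WT 48h-EpiLCs and 409.2 CPM in KO 48h-EpiLCs. In the kept cells of neither class they summed to 462.3 CPM in ESCs and 586.6 CPM in 48h-EpiLCs, between WT and KO at each stage. The WT 48h-EpiLCs stood above the other 3 classes. The plot of levels by class shows that this holds for single members too, with exceptions.

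**Figure D1:**
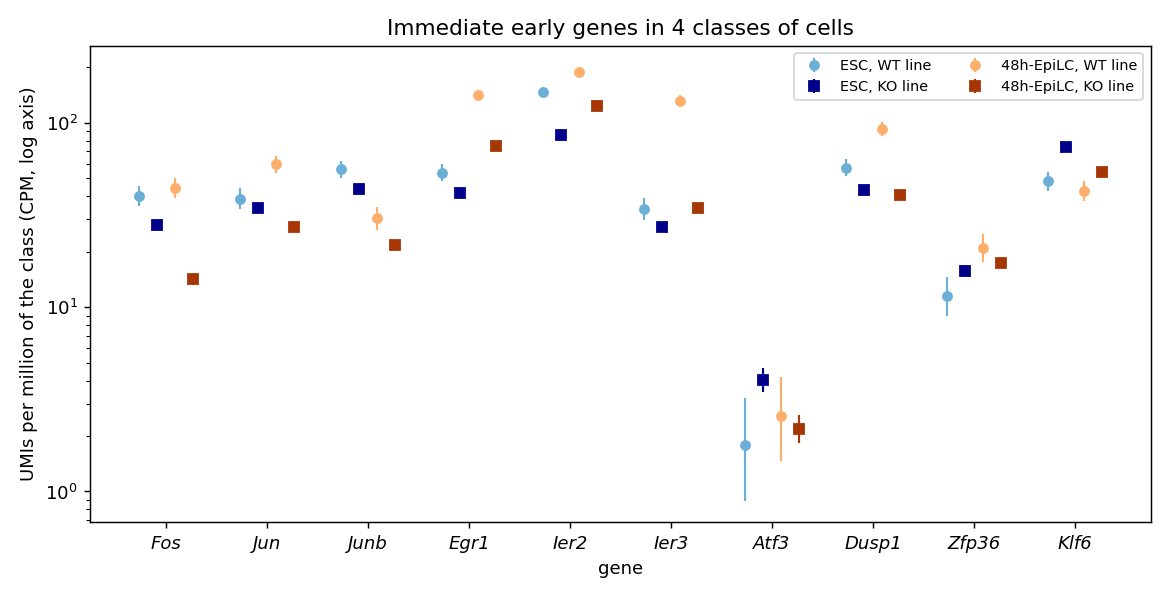
UMIs per 1000000 (CPM, log axis) of each of the 10 genes in the 4 classes, with exact Poisson 95% intervals as bars. WT 48h-EpiLCs (light orange circles) are highest for Fos, Jun, Egr1, Ier2, Ier3, Dusp1 and Zfp36, whereas Junb is highest in WT ESCs and Klf6 and Atf3 in KO ESCs.

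In 48h-EpiLCs, immediate early gene RNA was lower in the KO than in the WT line. Of the 9 members with a mean of at least 5 CPM in the classes compared, 6 were lower by 1.5-fold or more on the log2 scale of CPM + 1 (Fos, Jun, Egr1, Ier2, Ier3 and Dusp1) and 0 were higher. Among all 9385 genes measured, 4.3% were lower and 8.07% higher by this fold. The median log2 ratio of the 9 members was -0.91, against 0.07 for all genes. The members ran from -1.91 for Ier3 to 0.33 for Klf6. Atf3 was below 5 CPM in every class and did not enter these counts. The naive marker Zfp42 was 2.59-fold (2.27 to 2.97) and Esrrb 3.2-fold (2.1 to 5.15) higher and Fgf5 lower (0.673, 0.599 to 0.758) in the same KO 48h-EpiLCs, and the part of this difference in the result was not tested.

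Ier3 differed most. It was at 131.7 CPM (122.8 to 141, exact Poisson interval) in WT and at 34.4 CPM (32.9 to 35.9) in KO 48h-EpiLCs, a ratio of 0.261 (0.241 to 0.284, exact binomial interval). In ESCs it was at 34.1 CPM (29.7 to 39.1) in WT and 27.1 CPM (25.6 to 28.7) in KO cells. WT 48h-EpiLCs therefore stood apart from the other 3 classes, among which KO 48h-EpiLCs and WT ESCs did not differ beyond their counting intervals. Of the 9385 genes, 0.0533% had a lower KO over WT ratio in 48h-EpiLCs than Ier3.

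The gene Ier3 occupies 35821684 to 35822923 of chromosome 17 (plus strand). Of the 17 measured genes within 250 kb of it, 3 were higher and 0 lower by 1.5-fold in KO 48h-EpiLCs, with a median log2 ratio of 0.07. Over all genes 8.07% were higher and 4.3% lower there. These neighbours were examined after the ratio of Ier3 had been seen. The same window around Fos held 5 measured genes, 0 of which passed 1.5-fold in either direction.

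The AP-1 subunits differed among themselves. Fos (chromosome 12, 85473890 to 85477273, plus strand) was at 44.4 CPM (39.3 to 49.9) in WT and 14.1 CPM (13.2 to 15.1) in KO 48h-EpiLCs, a ratio of 0.319 (0.278 to 0.366). It was at 40.1 CPM (35.3 to 45.5) in WT and 27.9 CPM (26.3 to 29.5) in KO ESCs. The order of Fos was thus the same at both stages, with the WT classes overlapping each other and KO 48h-EpiLCs lowest.

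Jun, the usual partner of Fos, is a single exon (chromosome 4, 95049034 to 95052222, minus strand). It was at 59.6 CPM (53.7 to 66.0) in WT and 27.1 CPM (25.8 to 28.4) in KO 48h-EpiLCs, a ratio of 0.454 (0.405 to 0.51). In ESCs it was at 38.8 CPM (34.1 to 44.1) and 34.6 CPM (32.9 to 36.4), which overlap. Junb (chromosome 8, 84974484 to 84978718, minus strand), an AP-1 subunit that can oppose Jun, was at 30.4 CPM (26.2 to 35.0) in WT and 21.7 CPM (20.5 to 22.9) in KO 48h-EpiLCs. Its ratio of 0.714 (0.613 to 0.837) was below 1 beyond counting error but did not reach 1.5-fold.

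Dusp1 (chromosome 17, 26505590 to 26562128, minus strand) was at 92.6 CPM (85.2 to 100.5) in WT and 40.8 CPM (39.2 to 42.5) in KO 48h-EpiLCs, a ratio of 0.441 (0.402 to 0.484). In ESCs it was at 57.2 CPM (51.4 to 63.5) and 43.3 CPM (41.4 to 45.3). The KO classes of both stages overlapped, and both WT classes stood above them. The extent of Dusp1 given here is that of GENCODE. The RefSeq promoter window shown above, 26508423 to 26508722, lies inside it, so the 2 sources differ in the start. Dusp1 carried 2 of the TTATTTATT sites shown above and Ier2 none of the AU-rich motifs, and both were lower in KO 48h-EpiLCs. The part of the motifs in these levels was not tested.

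Ier2 (chromosome 8, 84661331 to 84662852, minus strand, 1 exon) was at 188.4 CPM (177.8 to 199.5) in WT and 123 CPM (120.2 to 125.8) in KO 48h-EpiLCs, a ratio of 0.653 (0.614 to 0.695). In ESCs it was at 146.9 CPM (137.5 to 156.8) and 85.6 CPM (82.9 to 88.4). Its 4 classes did not overlap.

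Egr1, a zinc finger factor that ERK signalling induces strongly (chromosome 18, 34859823 to 34864984, plus strand), was at 141 CPM (131.8 to 150.6) in WT and 74.5 CPM (72.3 to 76.7) in KO 48h-EpiLCs, a ratio of 0.528 (0.491 to 0.569). In ESCs it was at 53.8 CPM (48.1 to 59.9) and 41.9 CPM (40.0 to 43.9). The 4 classes did not overlap, and both 48h-EpiLC classes stood above both ESC classes.

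The remaining members did not reach 1.5-fold. Klf6 (chromosome 13, 5861482 to 5870394, plus strand), a Krüppel-like factor, was higher in the KO line, at 54.1 CPM (52.2 to 56.0) against 42.8 CPM (37.8 to 48.2), a ratio of 1.26 (1.12 to 1.44). Zfp36 (chromosome 7, 28376784 to 28380253, minus strand) was at 17.4 CPM (16.3 to 18.5) in KO and 21.1 CPM (17.6 to 24.99) in WT cells, a ratio of 0.826 (0.688 to 0.998). Atf3 (chromosome 1, 191170296 to 191218039, minus strand), a stress-induced factor, was at 2.19 CPM (1.83 to 2.6) and 2.57 CPM (1.47 to 4.18), which overlap. Of the members with TTATTTATT, Fos and Dusp1 passed 1.5-fold and Zfp36 did not, and of those without it Jun, Egr1, Ier2 and Ier3 passed. Whether the motif plays a part in these ratios was not tested.

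**Figure D2:**
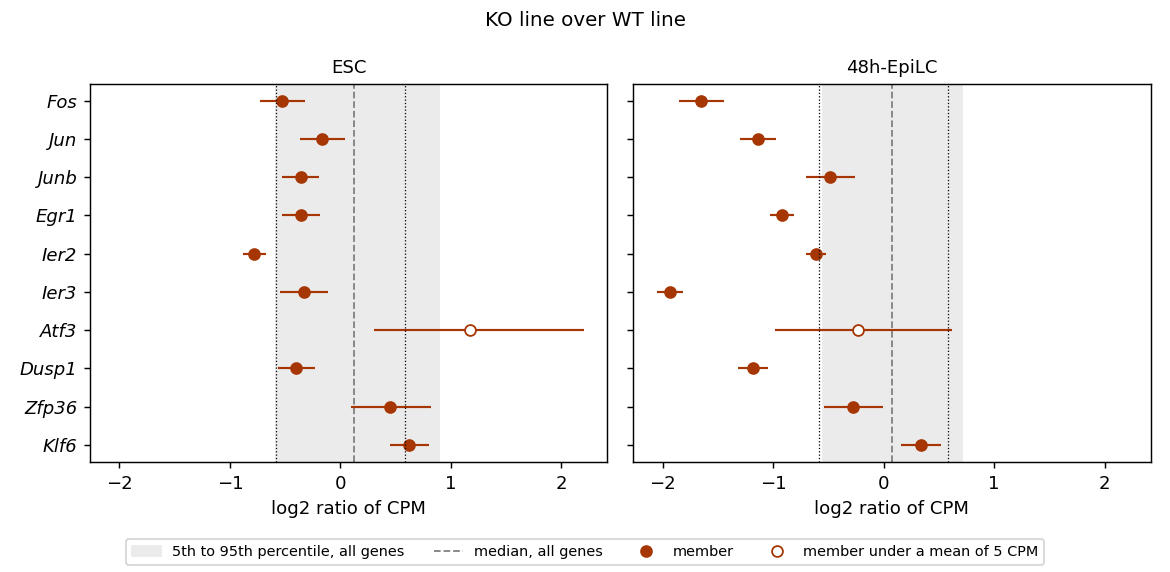
Log2 ratio of CPM, KO over WT line, for each of the 10 genes in ESCs (left) and 48h-EpiLCs (right), with exact 95% counting intervals as bars. Shading spans the 5th to the 95th percentile of all measured genes and the dashed line their median (both on CPM + 1), and dotted lines mark 1.5-fold. In 48h-EpiLCs Fos, Jun, Egr1, Ier2, Ier3 and Dusp1 lie left of the shading, and in ESCs Ier2 does. Atf3 (open circle) was under a mean of 5 CPM.

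The same comparison in ESCs gave smaller differences. Of the 9 measured members, Ier2 was lower by 1.5-fold (0.583, 0.542 to 0.627) and Klf6 higher (1.54, 1.37 to 1.74). Over all 9277 genes measured, 4.98% were lower and 12.4% higher by this fold, so that 1 of 9 in either direction is near the background. The median of the members was -0.35, against 0.13 for all genes, and 7 of 9 lay below the median of all genes. Scaling by the trimmed mean of M values (TMM) shifted every ESC ratio by -0.11, which left Klf6 short of 1.5-fold and put Fos past it.

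Fos had a ratio of 0.694 (0.605 to 0.799) in ESCs, Junb 0.779 (0.694 to 0.876), Egr1 0.779 (0.693 to 0.878), Dusp1 0.757 (0.675 to 0.851) and Ier3 0.795 (0.686 to 0.925). All 5 were lower in KO cells beyond counting error and short of 1.5-fold. Jun, at 0.892 (0.778 to 1.03), did not differ beyond it. Klf6 was at 48.3 CPM (42.9 to 54.1) in WT and 74.4 CPM (71.9 to 77.0) in KO ESCs, and Zfp36 at 11.5 CPM (9.01 to 14.6) and 15.8 CPM (14.6 to 17.0), a ratio of 1.37 (1.07 to 1.77). Atf3 was at 1.79 CPM (0.892 to 3.2) in WT ESCs, from 11 UMIs, and at 4.04 CPM (3.46 to 4.67) in KO ESCs.

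Among the members, Ier3 moved most without cells of 2 or more fibroblast-marker UMIs. Its log2 ratio in ESCs went from -0.32 to -0.85, and that of Jun from -0.16 to -0.45. The lower members past 1.5-fold were then 3 instead of 1 (Fos, Ier2 and Ier3), and Klf6, at 0.54, no longer passed. Of the others, Fos was at -0.59, Junb at -0.41, Egr1 at -0.39, Ier2 at -0.76, Dusp1 at -0.46, Zfp36 at 0.37 and Atf3 at 0.90 on this scale. Klf6 was at 0.55 without cells with at least 0.1% of UMIs from fibroblast markers or at least 3 UMIs of primitive endoderm or of 2-cell-like markers. In 48h-EpiLCs the same step left Ier3 at -1.91, Fos at -1.57, Jun at -1.09 and Egr1 at -0.92. Defining the lines by more genes (tdTomato, Dera and Slc25a13 against the Y-linked genes and Ipp), which enlarged the WT classes to 1342 ESCs and 1226 48h-EpiLCs, gave -0.81 for Ier3 but -0.04 for Egr1 in ESCs.

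The stages were then compared within each line. The general EpiLC protocol of the study starts from ESCs in 2i/LIF, and whether the 48h-EpiLCs came from the serum/LIF ESCs was not given in the sources used here, so culture history may differ along with stage and library. In the WT line 5 of 9 measured members were higher by 1.5-fold in 48h-EpiLCs than in ESCs (Jun, Egr1, Ier3, Dusp1 and Zfp36) and 1 lower (Junb), against 13.3% and 11.4% of 9242 genes. The median log2 ratio was 0.61, against 0.03 for all genes. In the KO line 1 of 9 was higher (Egr1) and 2 lower (Fos and Junb), against 8.55% and 10.1% of 9478 genes, with a median of -0.08 against -0.02 for all genes. The values of the members that follow use the same 4 classes as above and are not independent of them.

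Ier3 was 3.86-fold higher (3.31 to 4.51) in WT 48h-EpiLCs than in WT ESCs and 1.27-fold higher (1.18 to 1.36) in the KO line. Egr1 was 2.62-fold higher (2.31 to 2.98) in the WT line and 1.78-fold (1.68 to 1.88) in the KO line. Both genes were thus higher in 48h-EpiLCs in either line, with intervals that did not overlap between lines.

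Fos did not differ between stages beyond counting error in the WT line (1.11, 0.928 to 1.32) and was lower in KO 48h-EpiLCs (0.507, 0.464 to 0.554). Dusp1 was 1.62-fold higher (1.42 to 1.85) in the WT line and did not differ beyond counting error in the KO line (0.943, 0.887 to 1.00). Jun was 1.54-fold higher (1.3 to 1.82) in the WT line and lower in the KO line (0.782, 0.729 to 0.839), where its log2 ratio went from -0.34 to -0.0022 without cells of 2 or more fibroblast-marker UMIs. These 3 genes thus had the WT line above the KO line in their stage ratios, whereas Junb did not stand apart between lines. Junb was lower in 48h-EpiLCs in both lines, at 0.542 (0.452 to 0.649) in WT and 0.497 (0.463 to 0.534) in KO cells, with overlapping intervals. Ier2 was 1.28-fold (1.18 to 1.40) higher in WT and 1.44-fold (1.38 to 1.49) higher in KO 48h-EpiLCs. Zfp36 was 1.83-fold (1.36 to 2.47) and 1.10-fold (1.00 to 1.22) higher. Klf6 did not differ beyond counting error in the WT line (0.886, 0.748 to 1.05) and was lower in KO 48h-EpiLCs (0.727, 0.692 to 0.763). Atf3 gave 1.44 (0.627 to 3.43) in the WT and 0.543 (0.43 to 0.685) in the KO line, at levels under 5 CPM. The Ier3 value of the KO line moved with the cells taken, since its log2 ratio went from 0.33 to 0.90 without cells of 2 or more fibroblast-marker UMIs and to -0.07 in cells of 10000 to 20000 UMIs.

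**Figure D3:**
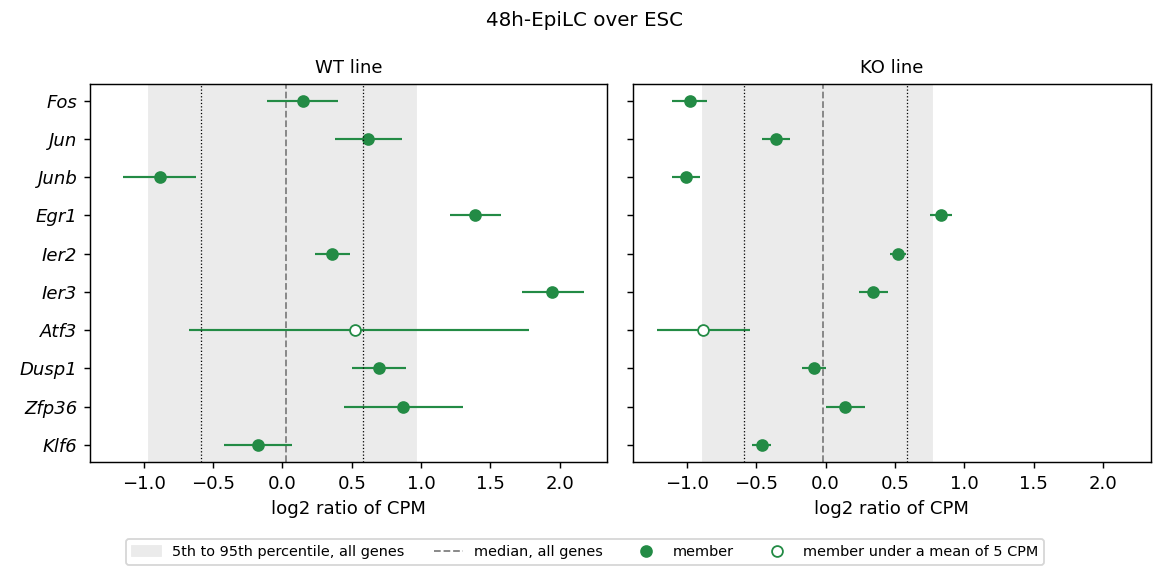
Log2 ratio of CPM, 48h-EpiLC over ESC, for each of the 10 genes in the WT line (left) and the KO line (right), with exact 95% counting intervals, shading and lines as in the plot of KO over WT ratios. Egr1 and Ier3 lie right of the shading in the WT line. In the KO line Egr1 lies right of it and Fos and Junb left of it.

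The distribution over single cells was examined after each cell had been thinned to 5000 UMIs, which left out 1 WT and 23 KO ESCs and 1 WT and 9 KO 48h-EpiLCs as shallower. Median depths before thinning were 13151 and 13368 UMIs in WT and KO ESCs and 15598 and 17628 in WT and KO 48h-EpiLCs. The 10 genes together gave a mean of 4.01 UMIs per cell in WT and 2.02 in KO 48h-EpiLCs, and 2.64 and 1.96 in ESCs. No UMI of any of them was found in 4.09% of WT and 16.3% of KO 48h-EpiLCs, and in 13.4% and 23.3% of ESCs. At least 5 of the genes were found together in 10.6% of WT and 1.72% of KO 48h-EpiLCs, and in 5.3% and 2.78% of ESCs.

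The lower sum in KO 48h-EpiLCs was seen from the lower quantiles to the upper ones. Its lower quartile was 1 UMI against 2 in WT cells, its median was 2 against 4, its upper quartile 3 against 6, and its 90th percentile 4 against 8. The variance over the mean of the sum was 1.67 in WT and 1.32 in KO 48h-EpiLCs, and 1.97 and 2.31 in ESCs. The tenth of cells with the most UMIs held 23.2% and 26.9% of them in 48h-EpiLCs and 28.2% and 33.8% in ESCs. The highest cell among KO ESCs had 23 UMIs.

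**Figure D4:**
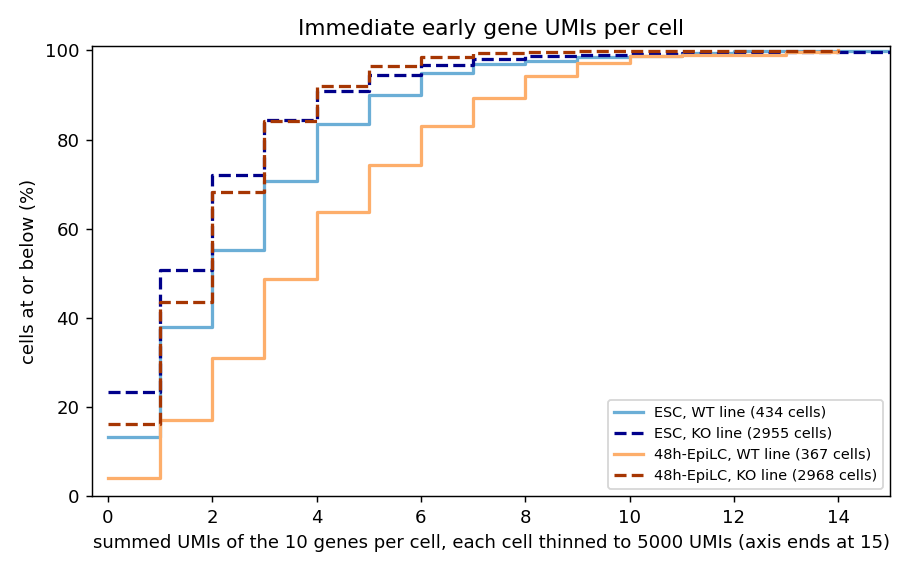
Cumulative share of cells (%) by their summed UMIs of the 10 genes, after thinning each cell to 5000 UMIs, for the 4 classes. The curve of WT 48h-EpiLCs lies to the right of the others, with 4.09% of cells at 0 UMIs against 13.4% to 23.3% in the other 3 classes.

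By member, a UMI of Ier3 was found in 39.2% (34.2% to 44.4%, exact binomial interval) of thinned WT and 11.8% (10.7% to 13.0%) of thinned KO 48h-EpiLCs, or 65.5% and 34.7% unthinned. For Egr1 these shares were 52.6% (47.3% to 57.8%) and 28.7% (27.1% to 30.3%), or 83.2% and 63.7% unthinned. For Fos they were 16.9% (13.2% to 21.1%) and 6.33% (5.48% to 7.27%), or 35.1% and 20.0% unthinned. For Ier3, Egr1 and Fos the shares ran in the direction of the CPM values. Zfp36 went the other way unthinned, at 26.4% of WT and 27.9% of KO 48h-EpiLCs. Its thinned shares, 12.3% and 8.42%, ran in the direction of its CPM values. No cell type that lacks these genes was identified in the libraries, so the part that free RNA adds to such shares was not measured.

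Cells with UMIs of one member were only weakly those with another. Over the 45 pairs, the median Pearson correlation of log-transformed thinned counts was 0.05 in WT ESCs (434 cells), 0.04 in KO ESCs (2955), 0.03 in WT 48h-EpiLCs (367) and 0.02 in KO 48h-EpiLCs (2968). For Fos and Jun it was 0.15, 0.11, 0.12 and 0.05 in these classes. Genes other than the members whose counts went most with the sum in all 4 classes were Bnip3, Pgk1, Anxa2, Rps18 and Btg2, with lowest correlations of 0.067 to 0.039. The cells of a class share a library and depth, and correlations of this size in sparse counts are not read further.

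Other early response genes were compared next. Of 23 listed, 15 were measured in KO over WT 48h-EpiLCs, 1 of them higher and 3 lower by 1.5-fold, with a median log2 ratio of -0.17. Over all genes 8.07% were higher and 4.3% lower, with a median of 0.07, so that the lower share of this list was above and its higher share near the background. Fosb, the Fos paralogue, was among the lower ones, at 15.4 CPM in KO and 46.8 CPM in WT cells (0.33, 0.289 to 0.378). Klf2, a naive pluripotency factor as well as an early response gene, was higher (93.1 against 37.5 CPM, 2.48, 2.18 to 2.85). Klf4, also a naive factor, was among the lower ones, at 4.94 CPM (4.39 to 5.54) in KO and 8.52 CPM (6.38 to 11.15) in WT cells. Fosb was at 10.7 CPM in WT and 10.3 CPM in KO ESCs. In ESCs 0 of 15 were higher and 3 lower, against 12.4% and 4.98% of all genes, with a median of 0.08 against 0.13. Klf4 was the one of these 3 at a mean of 20 CPM or more (92.0 against 154.5 CPM, 0.596, 0.555 to 0.64).

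RNA of the ERK pathway, of its feedback inhibitors and of the factors that induce early genes was then examined. Kinase activity was not measured. Of 19 genes of the ERK pathway and its feedback inhibitors, all measured, 1 was higher and 1 lower in KO 48h-EpiLCs, with a median of 0.00, which is near the background of 8.07% and 4.3%. Dusp4, a nuclear ERK phosphatase, was higher (75.1 against 41.6 CPM, 1.8, 1.59 to 2.05) and Spry4, a feedback inhibitor, lower (16.0 against 29.6 CPM, 0.541, 0.462 to 0.637). In ESCs 4 were higher and 0 lower, against 12.4% and 4.98% of all genes, among them Dusp4 (37.4 against 15.1 CPM, 2.48, 2.01 to 3.09). Dusp4 and Dusp1 thus stood on opposite sides in KO 48h-EpiLCs.

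Srf itself, which binds the serum response element, was higher in KO 48h-EpiLCs, at 31.3 against 14.95 CPM (2.09, 1.70 to 2.60). It was the 1 gene past 1.5-fold among 9 measured SRF partners and CREB factors there, near the 8.07% higher and 4.3% lower of all genes. In ESCs 0 of 10 passed, against 12.4% higher and 4.98% lower of all genes. Of the contractile SRF targets, which SRF drives with actin-regulated partners, 3 of 7 measured were higher and 0 lower in KO 48h-EpiLCs, with a median of 0.53, among them Myl9 (53.8 against 15.3 CPM, 3.52, 2.87 to 4.36) and Tagln (61 against 23.3 CPM, 2.62, 2.22 to 3.11). In ESCs 4 of 6 were higher, with Acta2 at 53.9 against 5.2 CPM and Tagln at 73.0 against 10.7 CPM, beside the fibroblast markers at 45.5 against 13.0 CPM. The part of fibroblasts in these contractile ratios was not tested.

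Genes of the decay side and of stress were also listed, and their counts, like those of the contractile targets, stand beside 8.07% higher and 4.3% lower of all genes in 48h-EpiLCs and 12.4% and 4.98% in ESCs. Of 8 AU-rich element binding proteins, 0 passed 1.5-fold in KO 48h-EpiLCs, and in ESCs Zfp36l1, a paralogue of Zfp36, was lower (31.7 against 62.2 CPM, 0.509, 0.454 to 0.571). In KO ESCs 2 of 9 heat shock genes were higher and 0 lower. Of 8 measured heat shock genes 2 were higher and 0 lower in KO 48h-EpiLCs, namely Hspb1 (747.6 against 324.3 CPM, 2.31, 2.21 to 2.41) and Dnajb1 (111.8 against 52.1 CPM, 2.15, 1.92 to 2.41). Stress and NF-kB response genes had 0 higher and 3 lower of 11, with Gadd45a at 24.7 against 40.5 CPM (0.61, 0.534 to 0.7). In KO ESCs they had 2 higher and 2 lower of 10, with Gadd45g (0.297, 0.26 to 0.34) and Gadd45a (0.469, 0.405 to 0.545) lower and Sqstm1 higher (1.67, 1.51 to 1.85).

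Genes that share the AU-rich motif but are not members had ratios close to those of genes without it. In KO over WT 48h-EpiLCs, 128 genes with 2 or more TTATTTATT in the 3′ UTR had a median log2 ratio of 0.09, 496 with 1 had 0.07 and 8519 with 0 had 0.07. By 1.5-fold, 4.69%, 4.84% and 4.08% of them were lower. In ESCs the medians were 0.07, 0.12 and 0.13. The median of the measured members was -0.91 in 48h-EpiLCs and -0.35 in ESCs, and the part of the motif in it was not tested.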

How the data were processed

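The 2 libraries were deposited as UMI counts for every gene in every barcode, unnormalised, from Cell Ranger (version 3.0.2) runs of the authors against mm10 with tdTomato added. The submitters' processing notes also name Seurat (version 4). Whether counting used strand was not given in the sources used here. Barcodes with under 1000 genes or over 10% mitochondrial UMIs were left out. The lines were told apart by at least 1 tdTomato UMI with 0 Y-linked UMIs (WT), or 0 tdTomato with at least 2 Y-linked UMIs (KO). Cells with both entered neither class, and no doublet caller was run; leaving out the top 10% of UMIs was an alternative. UMIs were summed per class and given per 1000000 (CPM), with exact Poisson intervals; ratios of CPM have exact conditional binomial intervals and shares exact Clopper-Pearson intervals, all at 95% and for counting error only. Calls used 1.5-fold on log2 of CPM + 1 among genes with a mean of at least 5 CPM in the classes compared. The procedure was tested on simulated data. With 1 library per stage no test between conditions was possible, and samples were grouped by stage as the labels give it.

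The members, lists and alternatives were chosen with earlier results of these data known. Named are all 10 members and, per list and comparison, up to 3 genes past 1.5-fold at a mean of at least 20 CPM, by size. Of 17 alternatives, 14 were planned and 3 added after seeing the data. Symbols with more than 1 identifier (Ddit3) were read from the lowest identifier. Python 3.11.15, numpy 2.4.6, scipy 1.17.1 and pandas 2.3.3 were used, with edgeR 4.0.16 in R 4.3.3 for TMM factors only. Positions and 3′ UTRs came from GENCODE M21 and promoters from RefSeq.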

Additional observations from a re-analysis of the deposited data

Results flagged for a closer look

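Zfp36 stood on opposite sides in the 2 stages: its KO over WT log2 ratio was 0.42 in ESCs and -0.26 in 48h-EpiLCs, a difference of -0.68. This difference was not tested, since each stage was 1 library, and in 48h-EpiLCs the ratio was 0.02 in cells of 10000 to 20000 UMIs.

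Barcodes left out for over 10% mitochondrial UMIs also held immediate early gene RNA, at 537.3 CPM (496.7 to 580.3) for the 10 genes summed in the ESC library and 548.8 CPM (516.5 to 582.5) in the 48h-EpiLC library, against 443.5 and 527.1 CPM in all kept cells. Their median depth was 2546 and 2481 UMIs. In the ESC library Jun was at 91.2 CPM in them, against 37.5 CPM in kept cells, and Ier3 at 81.3 against 34.2 CPM. Fos, Ier2 and Dusp1 were lower in them, at 28.2, 93.7 and 40.6 CPM against 34.96, 111 and 51.5 CPM in kept cells.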

How the results depend on the processing

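In KO over WT 48h-EpiLCs, Fos, Jun, Egr1, Ier2, Ier3 and Dusp1 kept their direction and 1.5-fold under all 17 alternatives, with log2 ratios of -1.81 to -1.37, -1.33 to -1.01, -1.10 to -0.73, -0.73 to -0.60, -2.40 to -1.79 and -1.29 to -1.09. In ESCs Ier2 did so too (-0.90 to -0.73). The ESC counts moved. Members higher in KO ESCs, 1 in the report, were 0 with TMM scaling, a pseudocount of 5 CPM, thinning, without fibroblast-marker cells, without cells with markers of 3 other types, and without cells of 2 or more fibroblast-marker UMIs, and 2 with no filter on low CPM, which let Atf3 in. Members lower there, 1 in the report, were 2 with TMM scaling, thinning, the mean of CPM per cell, without the top 10% of UMIs, without fibroblast-marker cells, with the line set by more genes and with at least 4 Y-linked UMIs for KO. They were 3 without cells of 2 or more fibroblast-marker UMIs under either line rule. Between stages, members higher in the WT line went from 5 to 3 with the line set by more genes, and members lower from 1 to 0 in cells of 10000 to 20000 UMIs. Members higher in the KO line went from 1 to 2 without fibroblast-marker cells and without cells of 2 or more such UMIs. Apart from the TMM scaling, pseudocount and filter, where the rule itself differs, the cause was not tested. Jun in ESCs ran from -0.45 to 0.15. Leaving out a replicate was not possible, since there are none. No paired analysis was possible because each stage is 1 library and no result comes from a test. The WT classes, of 435 and 368 cells, set the precision of each KO over WT ratio.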
